A study of Mus musculus with 2 samples.

Results

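The transcripts of 36 genes of the cell cycle were followed in the brain immune cells of 4 control and 4 Arpc4ΔCx3cr1 mice. The genes form a list of symbols chosen by their known function, although with earlier results of these data known. All 36 were found among the genes counted. They comprise 12 genes of DNA replication (Mcm2 to Mcm7, Pcna, Tyms, Rrm1, Rrm2, Tk1 and Uhrf1), 23 genes of mitosis (from Mki67 and Top2a to Ube2c and Cdc20), and Stmn1, which encodes the microtubule regulator stathmin. Arpc4ΔCx3cr1 mice carry Tg(Cx3cr1-Cre) and Arpc4 fl/fl, so that the ARPC4 subunit of the actin-nucleating Arp2/3 complex is lost from Cx3cr1-expressing cells, which include microglia, other brain macrophages and part of the blood-derived myeloid cells. Controls were Cre-negative Arpc4 fl/fl littermates, so both groups carry the floxed allele and only the Arpc4ΔCx3cr1 group carries the Cre transgene. All mice were 12 weeks old. Living CD45+ cells of each brain were sorted and tagged per mouse, and the 8 suspensions were then sequenced together by a droplet method that reads transcripts at their 3′ end. Each captured transcript is counted as 1 unique molecular identifier (UMI).

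A dividing cell copies its DNA in S phase and separates the copies in mitosis, and each step has its own transcripts. Replication genes are switched on by E2F factors as a cell leaves G1, whereas mitotic genes reach their peak in G2 and M phase. The DREAM complex holds down genes of both kinds in resting cells. Adult microglia are long-lived and renew slowly, and they divide faster after injury or in disease.

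The labelled genotype was checked first in Arpc4 itself. Its level in microglia-like cells was 216 to 235 CPM (UMIs per 1000000 UMIs) in the controls and 138 to 153 CPM in the Arpc4ΔCx3cr1 mice, a log2 fold change of -0.62 (SE 0.05; edgeR, adjusted p = 6.23e-06). Between 5251527 and 12878691 UMIs were counted per mouse, and 7777 control and 7954 Arpc4ΔCx3cr1 cells were microglia-like by their marker genes. The summed level of 13 microglia markers in these cells was 34055 to 34788 CPM in the controls and 21915 to 25151 CPM in the Arpc4ΔCx3cr1 mice. Arpc4ΔCx3cr1 mouse 1 stood apart, with 1413 CPM of Xist against 3.54 to 14.3 CPM in the other 7 mice, and most of its cells formed a cluster of their own. The authors state that 1 of the Arpc4ΔCx3cr1 mice was female, whereas the labels do not say which, so results that rest on mouse 1 are also given without it. The clusters holding the microglia-like cells were also largely split by genotype, with 3019 control and 105 Arpc4ΔCx3cr1 cells in the largest control cluster and 97 and 3268 in the largest Arpc4ΔCx3cr1 cluster, so values are compared over all microglia-like cells of a mouse. Clusters led by hemoglobin genes (41 control and 1344 Arpc4ΔCx3cr1 cells) or by few UMIs (998 and 509 cells) were left unnamed and were not counted as microglia-like. The leading genes of the hemoglobin-led cluster also included Ms4a7 and Apoe, which the paper reports as raised in a reactive microglial cluster of Arpc4ΔCx3cr1 mice. Reactive microglia may therefore be among the cells left out, which was not tested.

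In microglia-like cells, 12689 genes were tested between the genotypes on UMIs summed per mouse, and 45.1% of them passed the threshold (edgeR, adjusted p under 0.05), 22.4% higher and 22.8% lower in Arpc4ΔCx3cr1 mice. Of the 36 cell cycle genes, 30 had enough UMIs to be tested, and 6 passed the threshold, 5 higher and 1 lower. The groups of 4 mice did not overlap in 6 of the 30, 5 higher and 1 lower, against 43.4% of all genes tested (21.4% higher and 22% lower). The mitotic genes Cenpe, Cenpa, Cdk1, Anln and Kif20b rose in Arpc4ΔCx3cr1 mice, and the replication gene Mcm3 fell. The median log2 fold change was 0.56 over the 19 mitotic genes tested and 0.24 over the 10 replication genes tested, against -0.01 over all genes tested. Of the mitotic genes 18 had a positive and 1 a negative fold change, while the replication genes were split 6 to 4. The genes too rare to be tested were Uhrf1, Rrm2, Ccna2, Aurka, Plk1 and Bub1, with 42 to 80 UMIs each over all 8 mice, and the genes tested had 68 to 2294 UMIs. At such counts a small change was not detectable for most mitotic genes. The plot of fold changes by role gives all 30 genes.

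**Figure D1:**
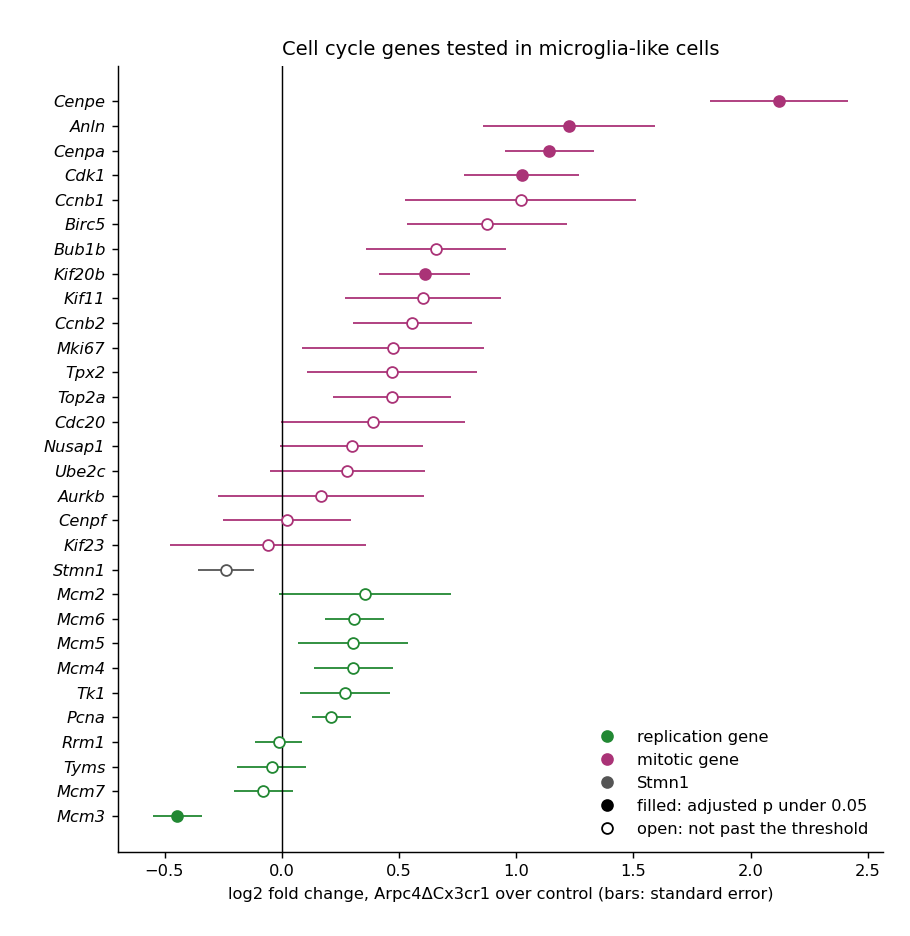
Log2 fold change of each cell cycle gene tested in microglia-like cells, Arpc4ΔCx3cr1 over control, with its standard error (4 mice per group); filled points passed the threshold. Mitotic genes lie to the right of 0 except for Kif23, with Cenpe farthest at 2.12, and Mcm3 is the filled point to the left of 0 at -0.45.

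The control regions in front of the 4 genes with an adjusted p under 0.01, a limit chosen after the values were seen, are shown, because replication and mitotic genes are known to differ in the motifs they carry. They are the 250 bases before the RefSeq transcription start (build GRCm38.p6), written 5′ to 3′ on the strand of the gene. Capitals mark the CCAAT box (CCAAT, or ATTGG where it lies on the opposite strand), the CHR element of mitotic genes (TTTGAA or TTCGAA) and the E2F site (TTTCCCGC, TTTGGCGC, TTTCGCGC or TTTGCCGC), each searched on both strands.
Mcm3 (chr1:20820313-20820562, minus strand): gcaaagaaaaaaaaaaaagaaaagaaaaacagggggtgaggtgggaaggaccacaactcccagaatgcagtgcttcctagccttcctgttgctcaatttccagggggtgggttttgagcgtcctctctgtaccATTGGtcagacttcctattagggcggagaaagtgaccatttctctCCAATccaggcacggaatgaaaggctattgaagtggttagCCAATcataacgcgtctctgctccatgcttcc
Cdk1 (chr10:69352913-69353162, minus strand): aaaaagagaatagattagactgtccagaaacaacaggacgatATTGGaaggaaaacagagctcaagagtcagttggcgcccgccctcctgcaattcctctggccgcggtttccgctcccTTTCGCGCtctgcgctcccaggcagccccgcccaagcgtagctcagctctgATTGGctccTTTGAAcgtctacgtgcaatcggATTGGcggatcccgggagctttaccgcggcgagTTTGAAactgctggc
Cenpa (chr5:30666636-30666885, plus strand): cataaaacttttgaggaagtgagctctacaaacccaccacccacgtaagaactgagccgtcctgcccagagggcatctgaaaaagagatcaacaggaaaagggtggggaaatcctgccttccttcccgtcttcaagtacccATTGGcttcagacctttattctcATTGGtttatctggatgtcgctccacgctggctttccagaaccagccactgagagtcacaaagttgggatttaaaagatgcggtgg
Cenpe (chr3:135212313-135212562, plus strand): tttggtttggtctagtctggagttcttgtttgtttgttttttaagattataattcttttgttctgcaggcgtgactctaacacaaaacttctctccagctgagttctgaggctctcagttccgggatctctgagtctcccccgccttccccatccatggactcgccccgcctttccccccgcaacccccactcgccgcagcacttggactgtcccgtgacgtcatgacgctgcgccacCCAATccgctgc

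In windows of 300 bases that add the first 50 bases after the start, 31 of the 36 genes were matched, with 33 windows. The CHR element lay in 16 of 20 windows of mitotic genes (80.0%) and in 2 of 13 windows of replication genes (15.4%), against 19.2% of all 32851 windows. The E2F site showed the reverse, with 1 of 20 mitotic windows (5%), that of Cdk1, and 5 of 13 replication windows (38.5%), against 2.26% of all. The CCAAT box was held by 80.0% of the mitotic, 84.6% of the replication and 37.4% of all windows. Cdk1 carried all 3 motifs, Mcm3 and Cenpa each held a match among the first 50 bases after the start that is not printed (E2F sites in Mcm3, a CHR element in Cenpa), and Cenpe, the gene with the largest fold change of the list, held a CCAAT box and neither of the other motifs. A match describes these letters in these windows and is no evidence of binding.

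Levels of single genes are given from here on in CPM of the microglia-like cells of a mouse, with totals scaled by the TMM method of edgeR. The MCM proteins form the helicase that opens DNA at replication forks. Mcm3 was at 32.7, 25.9, 30.7 and 27.4 CPM in control mice 1 to 4 and at 18, 22.9, 21.1 and 23.2 CPM in Arpc4ΔCx3cr1 mice 1 to 4. The groups did not overlap, and the log2 fold change was -0.45 (SE 0.10; edgeR, adjusted p = 0.00497). Without Arpc4ΔCx3cr1 mouse 1, the lowest of all, it was -0.37 (edgeR, adjusted p = 0.00534). The other 5 subunits of the helicase did not pass the threshold. Mcm6 was at 7.52 to 9.53 CPM in the controls and 9.91 to 12.7 CPM in the Arpc4ΔCx3cr1 mice, without overlap here but with overlap when scaled by totals, and with a log2 fold change of 0.31 (SE 0.13; edgeR, adjusted p = 0.0668). Mcm2, Mcm4 and Mcm5 had fold changes of 0.36, 0.30 and 0.30 (log2) with groups that overlapped, and Mcm7 had -0.08. Mcm3 thus went the opposite way to the sign of 4 of its 5 partners, although a difference between the subunits was not tested.

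Pcna, the ring that holds DNA polymerase on its template, was at 27.1, 27.5, 32.7 and 28.9 CPM in the controls and at 35.3, 32.4, 31.0 and 36.4 CPM in the Arpc4ΔCx3cr1 mice. Its groups overlapped through control mouse 3, and the log2 fold change of 0.21 (SE 0.08) did not pass the threshold (edgeR, adjusted p = 0.0598). The genes that make the DNA building blocks showed no change past the threshold either. Tyms, the thymidylate synthase, was at 10.9 to 15.4 CPM in the controls and 10.5 to 15.5 CPM in the Arpc4ΔCx3cr1 mice, and Rrm1, the large subunit of ribonucleotide reductase, at 10.2 to 11.6 and 9.91 to 11.2 CPM. The salvage kinase Tk1 had a log2 fold change of 0.27 (SE 0.19). The second reductase subunit Rrm2, which unlike Rrm1 is made mainly in S phase, had 56 UMIs in all, and the DNA methylation factor Uhrf1 had 71.

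Of the 19 mitotic genes tested 5 rose, where 22.4% of all genes were higher. Cdk1, the kinase that with cyclin B drives a cell into mitosis, was at 4.40, 3.18, 4.18 and 2.54 CPM in the controls and at 4.49, 6.95, 7.77 and 9.06 CPM in the Arpc4ΔCx3cr1 mice. Its lowest Arpc4ΔCx3cr1 value, in mouse 1, lay just above the highest control value (the groups overlapped when scaled by totals), and the log2 fold change was 1.02 (SE 0.25; edgeR, adjusted p = 0.00592). Without mouse 1 the change was 1.2 (edgeR, adjusted p = 0.000206). Cyclin B1 (Ccnb1), its partner, had a log2 fold change of the same size, 1.02, on 68 UMIs and with a standard error of 0.49 (edgeR, adjusted p = 0.116), and Ccnb2 had 0.56 (SE 0.25). Neither passed the threshold.

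Kinetochore genes held the largest difference of the list. Cenpe, the kinesin that carries chromosomes to the middle of the spindle, was at 2.78, 1.29, 1.93 and 1.02 CPM in the controls and at 4.91, 6.27, 7.96 and 9.06 CPM in the Arpc4ΔCx3cr1 mice. All 4 Arpc4ΔCx3cr1 values exceeded all control values, with a log2 fold change of 2.12 (SE 0.30; edgeR, adjusted p = 0.000179), or 4.35-fold. Cenpa, the histone H3 variant that marks centromeres, was at 2.78, 3.98, 5.14 and 4.07 CPM in the controls and at 6.89, 9, 10.2 and 10.3 CPM in the Arpc4ΔCx3cr1 mice. It rose by 1.14 on the log2 scale (SE 0.19; edgeR, adjusted p = 0.000601) with no overlap. Cenpf, another kinetochore protein, was at 2.74 to 5.68 CPM in the controls and 2.97 to 5.01 CPM in the Arpc4ΔCx3cr1 mice, with a log2 fold change of 0.02 (SE 0.27). The checkpoint kinase Bub1b had 0.66 (SE 0.30; edgeR, adjusted p = 0.0963).

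**Figure D2:**
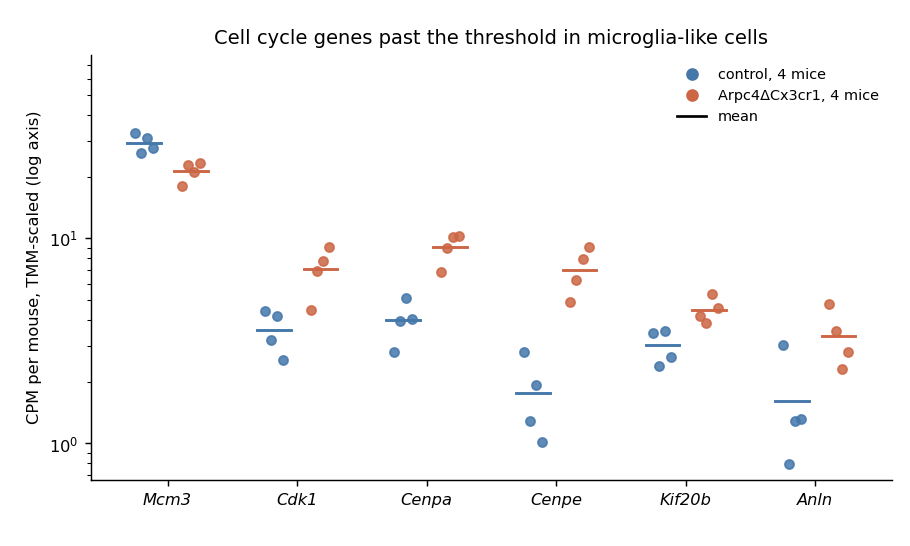
Level of the 6 cell cycle genes that passed the threshold, in CPM on a log axis, 1 point per mouse, with the group mean as a line. Mcm3 is lower in all Arpc4ΔCx3cr1 mice, Cdk1, Cenpa, Cenpe and Kif20b are higher in all of them, and the groups of Anln overlap through control mouse 1 at 3.01 CPM.

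Among the genes of the spindle and of cell separation, Kif20b (chr19:34922361-34975745, GENCODE vM21), a kinesin of late mitosis, was at 3.48, 2.39, 3.53 and 2.64 CPM in the controls and at 4.18, 3.87, 5.37 and 4.58 CPM in the Arpc4ΔCx3cr1 mice. The groups did not overlap, and the log2 fold change was 0.61 (SE 0.19; edgeR, adjusted p = 0.0247). Anln (chr9:22332012-22389188), the actin-binding anillin of the cleavage furrow, was at 3.01, 0.80, 1.29 and 1.32 CPM in the controls and at 4.80, 3.53, 2.30 and 2.79 CPM in the Arpc4ΔCx3cr1 mice. Its groups overlapped through control mouse 1, and the log2 fold change was 1.22 (SE 0.37; edgeR, adjusted p = 0.0193). Both calls depended on single mice. Kif20b missed the threshold without control mouse 2 (0.50; edgeR, adjusted p = 0.0769), control mouse 4 (0.55; 0.0748), Arpc4ΔCx3cr1 mouse 3 (0.51; 0.0672) or Arpc4ΔCx3cr1 mouse 4 (0.60; 0.0535), and Anln without control mouse 2 (0.98; edgeR, adjusted p = 0.067), control mouse 3 (1.16; 0.06) or control mouse 4 (1.17; 0.0599). Each of the 2 genes also overlaps another gene on the same strand, Mir1950 and Gm48646 respectively, so part of their UMIs could belong to these. Anln also missed it when the cells were clustered more coarsely (1.36; edgeR, adjusted p = 0.0511). In that clustering a cluster led by Xist, with 4 control and 1725 Arpc4ΔCx3cr1 cells, was not counted as microglia-like. Mcm3, Cdk1, Cenpa and Cenpe passed under each of the 19 other fits. When a fold over 2 was also required, 4 members passed, all of them higher, and Mcm3 and Kif20b did not. Of all 12689 genes tested, 948 then passed as higher and 565 as lower.

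The other mitotic genes did not pass the threshold in the main fit, with all 8 mice. Birc5 (survivin), of the chromosomal passenger complex, had a log2 fold change of 0.88 (SE 0.34; edgeR, adjusted p = 0.0583) with overlapping groups. Without Arpc4ΔCx3cr1 mouse 1 it passed at 1.09 (edgeR, adjusted p = 0.00682), as it did without the filter on low counts, in both other clusterings and without cells of very high UMIs. The coarser of these clusterings did not count the Xist-led cluster as microglia-like, so that fit is not separate from leaving out mouse 1. Aurkb, the kinase of the same complex, had 0.17, and its Arpc4ΔCx3cr1 mouse 4 was at 2.69 CPM against 0.84 to 1.03 CPM in mice 1 to 3. The best known markers of dividing cells, Mki67 and Top2a, were at 2.13 to 6.26 and 3.66 to 6.96 CPM in the controls and at 2.30 to 7.27 and 4.80 to 8.86 CPM in the Arpc4ΔCx3cr1 mice, with log2 fold changes of 0.47 (SE 0.39) and 0.47 (SE 0.25). Top2a passed without Arpc4ΔCx3cr1 mouse 1 (0.61; edgeR, adjusted p = 0.0372). Leaving out a single other mouse brought Ccnb1, Ccnb2, Kif11, Bub1b, Tpx2, Aurka or Pcna past the threshold as higher, Ccnb1, Ccnb2 and Kif11 without control mouse 3. Some of these genes also passed as higher with all 8 mice. Without cells of over 3 times the median UMIs these were Top2a (0.82; edgeR, adjusted p = 0.0319), Kif11 (1.23; 0.0129) and Bub1b (0.91; 0.0215). With another scaling of the totals Pcna passed (0.22; edgeR, adjusted p = 0.0497). The spindle genes Kif11 (0.60), Tpx2 (0.47), Nusap1 (0.30) and Kif23 (-0.06) and the genes of the anaphase-promoting complex, Cdc20 (0.39) and Ube2c (0.28), had overlapping groups. Stmn1 was at 28.7, 32.3, 32.2 and 30 CPM in the controls and at 19.6, 28.8, 26.7 and 29.9 CPM in the Arpc4ΔCx3cr1 mice, with a log2 fold change of -0.24 (SE 0.12; edgeR, adjusted p = 0.13). Mouse 1 was the lowest, and without it the change was -0.12 (edgeR, adjusted p = 0.208).

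A higher level in a summed sample can come from more cells that hold a transcript or from more of it per cell, and the sum alone cannot tell these apart. Cells were therefore counted that held UMIs of at least 3 mitotic or at least 3 replication genes. Some of these genes were also higher in the remaining Arpc4ΔCx3cr1 cells (below), which can bring more cells to 3 genes. The count thus cannot fully tell the 2 apart either. Microglia-like cells of Arpc4ΔCx3cr1 mice were sequenced more deeply, with a median of 4553.5 UMIs against 3837 in controls, so each cell was first thinned to 2000 UMIs, which left out 283 control and 124 Arpc4ΔCx3cr1 cells. After thinning, cells with at least 3 mitotic genes made up 0.10, 0.14, 0.19 and 0.14% of the microglia-like cells in control mice 1 to 4 and 0.21, 0.47, 0.33 and 0.57% in Arpc4ΔCx3cr1 mice 1 to 4. The means were 0.141% ± 0.0356 and 0.397% ± 0.158 (SD, n = 4 mice each), and the groups did not overlap. They rest on 11 of 7494 control cells (0.147%, exact binomial 95% interval 0.0733 to 0.262%) and 31 of 7830 Arpc4ΔCx3cr1 cells (0.396%, 0.269 to 0.562%), intervals that cover counting error only. The nearest mice, control mouse 3 and Arpc4ΔCx3cr1 mouse 1, held 4 such cells each, of 2114 and 1883. The lack of overlap thus rests on very few cells per mouse. Without thinning the means were 0.231% and 0.605%, again without overlap. Of the thinned Arpc4ΔCx3cr1 cells, 2, 5 and 4 held exactly 3, 4 and 5 mitotic genes, while the control cells counted held 6 or more. With at least 5 mitotic genes the means were 0.141% and 0.307%, without overlap. The groups overlapped when at least 2 mitotic genes were asked for (means of 0.242% and 0.56%) and when the hemoglobin-led cluster was counted in (0.141% and 0.344%). That cluster, in which 6 of 13 microglia markers were high, held 0 such cells among 1139 thinned Arpc4ΔCx3cr1 cells, which allows a share of up to 0.263%, and 1 of 1344 without thinning.

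For replication genes the picture differed. After thinning, cells with at least 3 of them made up 0.31, 0.23, 0.47 and 0.36% in the controls and 0.16, 0.47, 0.28 and 0.73% in the Arpc4ΔCx3cr1 mice, with means of 0.343% ± 0.103 and 0.411% ± 0.248 (SD, n = 4 mice each). The groups overlapped, and the direction turned when Arpc4ΔCx3cr1 mouse 4 was left out (-0.04 percentage points, against 0.07 with all mice). Without thinning the means were 1.68% and 2.41% with no overlap, a gap that went with the greater depth of the Arpc4ΔCx3cr1 cells. The share of cells with at least 3 genes of both lists was 0.05% and 0.09% after thinning, on 4 and 7 cells.

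**Figure D3:**
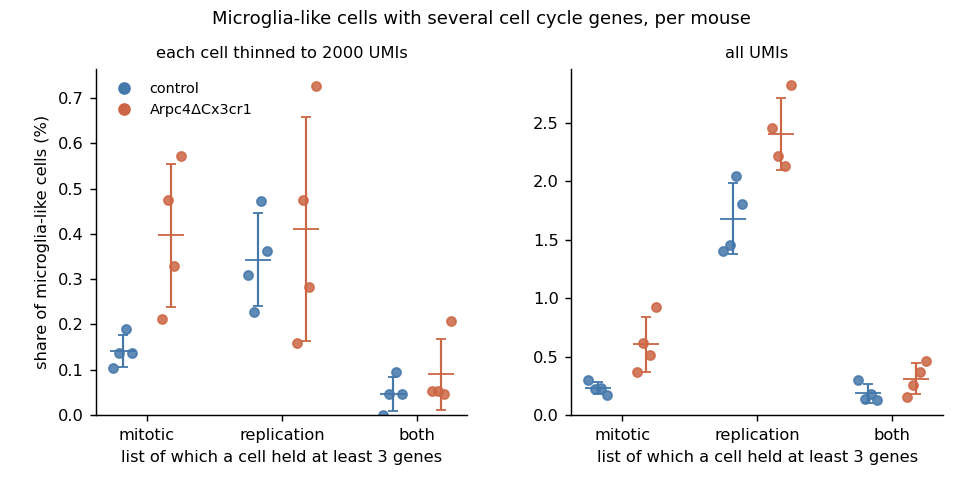
Share of microglia-like cells with UMIs of at least 3 mitotic genes, at least 3 replication genes, or both, 1 point per mouse with the mean and SD of 4 mice, after thinning each cell to 2000 UMIs (left) and without thinning (right). With at least 3 genes and without the hemoglobin-led cluster, as plotted, the mitotic share separates the groups on both sides, while the replication share separates them only without thinning. The nearest mice of the mitotic share on the left, control mouse 3 and Arpc4ΔCx3cr1 mouse 1, held 4 such cells each.

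The cells with several mitotic genes were few and rich. Without thinning there were 17 in the controls and 48 in the Arpc4ΔCx3cr1 mice, with medians of 8131 and 8173.5 UMIs and of 55 and 21 mitotic UMIs per cell. They were found in each mouse, 3 to 5 cells per control and 7 to 18 per Arpc4ΔCx3cr1 mouse, and 45 of the 65 lay in 1 small cluster that was split by marker genes cell by cell. Cells of that cluster were kept only with many microglia and few B cell, CNS-associated macrophage, monocyte and myeloid progenitor markers, so the levels of these lists are largely set by the choice. The microglia list summed to 24109 CPM in the control and 19882 CPM in the Arpc4ΔCx3cr1 cells, and of the lists that were not used, that of T cells to 0 and 2.30 CPM, that of natural killer cells to 0 in both, and that of granulocytes to 175 and 364 CPM. The list for CNS-associated macrophages was at 260 CPM in the control cells against 23.8 CPM in other control microglia-like cells, with a median of 0 per cell. The homeostatic receptor P2ry12, itself on the microglia list, was at 1411 and 578 CPM in the control and Arpc4ΔCx3cr1 cells with mitotic genes. Over all microglia-like cells of a mouse it was at 2630 to 2811 CPM in the controls and 523 to 969 CPM in the Arpc4ΔCx3cr1 mice. The lipid carrier Apoe was at 3636 and 9598 CPM in the control and Arpc4ΔCx3cr1 cells with mitotic genes. Leaving out the small cluster altogether lowered the difference in the thinned mitotic share from 0.26 to 0.09 percentage points.

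These 65 cells held most UMIs of some genes and few of others. They supplied 95.8% of the Mki67, 91.7% of the Ube2c and 91.5% of the Top2a UMIs of all microglia-like cells, genes that were used to choose them. Among genes not used to choose them, they supplied 92.9% of Rrm2 and 34.6% of Stmn1, but 1.74% of Mcm3, 3.25% of Mcm4 and 4.05% of Pcna. Most MCM and Pcna transcripts were thus counted in cells without several mitotic transcripts, while Rrm2 was nearly absent there, at 0.06 CPM in control and 0.05 CPM in Arpc4ΔCx3cr1 cells. With both genotypes together, the 5 mitotic genes that rose were among the lowest of the mitotic genes. The shares were 23.5% for Cdk1, 25.5% for Kif20b, 33.1% for Cenpe, 34.6% for Cenpa and 41.7% for Anln. A rise in the remaining Arpc4ΔCx3cr1 cells lowers such a share by itself. In controls alone Kif20b (26.5%), Cenpa (33.6%) and Cdk1 (33.9%) were also among the lowest. Cenpe and Anln were not, at 60.4% and 69.6% in controls against 27.9% and 31.8% in Arpc4ΔCx3cr1 mice.

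**Figure D4:**
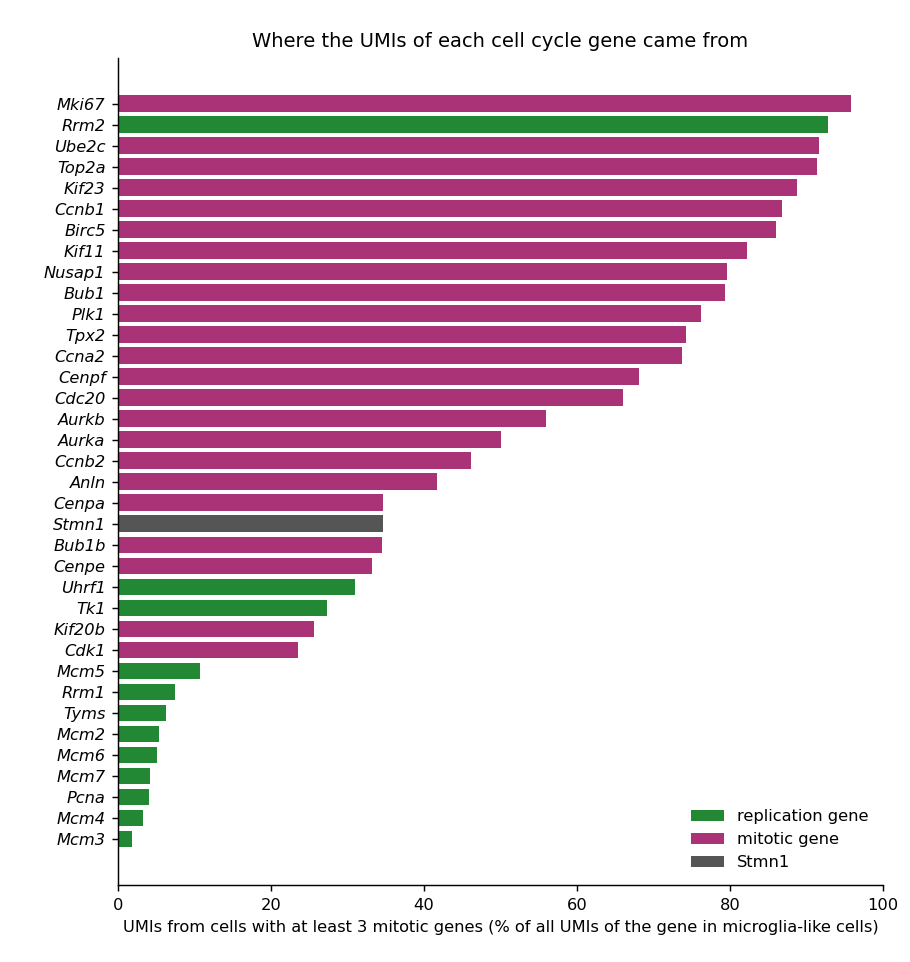
Share of the UMIs of each cell cycle gene in microglia-like cells that came from the 65 cells with at least 3 mitotic genes, both genotypes together. The bars run from 95.8% for Mki67 to 1.74% for Mcm3, and 8 of the replication genes lie at 7.42% or below.

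The comparison was repeated after the 65 cells had been removed. The cells were chosen by the mitotic genes themselves, so a lower mitotic level was fixed by the removal, and the values describe the remaining cells. The summed level of the mitotic genes was then 16.4 to 18.9 CPM in the controls and 27.6 to 35.1 CPM in the Arpc4ΔCx3cr1 mice (scaled by totals), means of 17.4 ± 1.08 and 31.8 ± 3.13 CPM (SD, n = 4 mice each), where with all cells they had been 50.5 ± 12.5 and 74.3 ± 14.5 CPM with overlap between mice. Most of the difference in the remaining cells lay in the 5 mitotic genes that had risen with all cells. Pooled over these cells, Cdk1 was at 2.36 CPM in control and 5.59 CPM in Arpc4ΔCx3cr1 cells. Cenpa was at 2.89 and 5.76, Cenpe at 0.65 and 4.98, Kif20b at 2.23 and 3.31 and Anln at 0.43 and 2.20 CPM. Among the other mitotic genes the highest level was 1.71 CPM in control (Cenpf) and 1.83 CPM in Arpc4ΔCx3cr1 cells (Bub1b). Of 19 members tested 8 passed the threshold here, where 45.1% of all genes passed with all cells kept. The 5 mitotic genes that rose with all cells were among them. Cenpe was at 1.17, 0.60, 0.54 and 0.51 CPM in the controls and at 3.88, 4.50, 6.87 and 5.27 CPM in the Arpc4ΔCx3cr1 mice, a log2 fold change of 2.99 (SE 0.30; edgeR, adjusted p = 1.7e-05). Anln had 2.40 (SE 0.49; edgeR, adjusted p = 0.00218), Cdk1 1.35 (SE 0.27; edgeR, adjusted p = 0.00195), Cenpa 1.12 (SE 0.22; edgeR, adjusted p = 0.00171) and Kif20b 0.65 (SE 0.23; edgeR, adjusted p = 0.0367). Mcm3 stayed lower with -0.43 (edgeR, adjusted p = 0.00607). Stmn1 now passed as lower in Arpc4ΔCx3cr1 mice, with 16.8, 23, 22.4 and 23.5 CPM against 14.3, 16.7, 17.4 and 14.9 CPM, which overlapped, and a log2 fold change of -0.46 (SE 0.11; edgeR, adjusted p = 0.00748). Tk1 passed as higher, with 1.51 to 2.14 against 2.42 to 4.04 CPM and 0.80 (SE 0.24; edgeR, adjusted p = 0.0185). Cenpf turned to -0.81 (SE 0.44) without passing. Over all thinned microglia-like cells, the 65 cells not removed, 3.03% of control and 6.56% of Arpc4ΔCx3cr1 cells held UMIs of exactly 1 mitotic gene.

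The level of free RNA was measured as well. In droplets with at most 100 UMIs the mitotic genes summed to 74.9 CPM and the replication genes to 147 CPM, and Cenpe was at 3.50 CPM, Cdk1 at 8.91 CPM and Cenpa at 11.2 CPM. When 10% of the UMIs of each mouse were taken as free RNA of this profile and subtracted, the same 6 genes passed the threshold. Marker lists of other cell types in the microglia-like cells also differed between the genotypes. The monocyte list was at 15.3 to 20.5 CPM in the controls and 30 to 77.9 CPM in the Arpc4ΔCx3cr1 mice, with 1 of 7 genes higher without overlap, and the dendritic cell list at 5.22 to 7.83 and 14.7 to 20.7 CPM, with 1 of 6 genes higher and Ccr7 at 0. The granulocyte list was at 387 to 408 and 432 to 620 CPM, with 2 of 7 genes higher, and the natural killer cell list at 0.442 to 1.42 and 2.71 to 4.57 CPM, with 1 of 6 genes higher and Eomes at 0. The B cell list was lower, at 225 to 239 and 78.4 to 139 CPM. The lists of myeloid progenitors (0.618 to 1.70 and 0.913 to 1.51 CPM), T cells, CNS-associated macrophages, erythroid cells and other brain cells overlapped. The part of these levels in the result was not tested.

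Genes of S phase and of mitosis were set against each other in the same mice. Over all microglia-like cells, the summed level of the replication genes was 115 to 132 CPM in the controls and 112 to 123 CPM in the Arpc4ΔCx3cr1 mice (scaled by totals), means of 123 ± 7.79 and 116 ± 5.22 CPM (SD, n = 4 mice each), with overlap. The ratio of the mitotic to the replication sum was 0.46, 0.37, 0.48 and 0.32 in the controls and 0.52, 0.69, 0.59 and 0.74 in the Arpc4ΔCx3cr1 mice, without overlap. Among the thinned cells with at least 3 mitotic genes, 4 of 11 in the controls and 7 of 31 in the Arpc4ΔCx3cr1 mice also held 3 replication genes. Those with no replication gene at all numbered 2 of 11 and 13 of 31. These counts are too small, and too unequal between mice, for a comparison of phases.

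The wider cell cycle machinery was read from 105 further genes, of which 86 were tested in microglia-like cells and 30 passed the threshold, 26 higher and 4 lower in Arpc4ΔCx3cr1 mice. This is to be read against the 45.1% of all genes tested that passed, 22.4% higher and 22.8% lower, and the same shares stand behind the counts of each group of genes below. Cyclins D, which carry growth signals into G1, differed from each other. Ccnd2 was at 2.55, 0.70, 0.75 and 1.12 CPM in the controls and at 47.9, 8.89, 5.37 and 12.9 CPM in the Arpc4ΔCx3cr1 mice. All 4 were above the controls, mouse 1 far above the rest, and the log2 fold change was 4.08 (SE 0.81; edgeR, adjusted p = 0.00193), or 3.04 without mouse 1. Ccnd3 was at 270, 221, 236 and 264 CPM in the controls and at 735, 450, 607 and 558 CPM in the Arpc4ΔCx3cr1 mice, a rise of 1.25 (SE 0.13; edgeR, adjusted p = 2.42e-05). Ccnd1, at 95.2 to 115 and 63.6 to 117 CPM, did not pass the threshold (log2 -0.20, SE 0.15), but passed as lower without mouse 1 (-0.35; edgeR, adjusted p = 0.0151). Of their kinases, Cdk6 rose by 0.50 (SE 0.13; edgeR, adjusted p = 0.00919) with overlapping groups, while Cdk4 had 0.10 (SE 0.08).

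Inhibitors of cyclin-dependent kinases, which hold cells in G1, moved in both directions, with 3 of 7 higher and 1 lower (22.4% and 22.8% of all genes). Cdkn2a, the locus of p16 and p19ARF, was at 3.71, 3.38, 2.25 and 3.86 CPM in the controls and at 28.6, 20.7, 26.3 and 34.7 CPM in the Arpc4ΔCx3cr1 mice. The groups lay far apart, with a log2 fold change of 3.08 (SE 0.20; edgeR, adjusted p = 9.59e-07). Its neighbour Cdkn2b rose by 1.2 (SE 0.34; edgeR, adjusted p = 0.0147) and the p53 target Cdkn1a (p21) by 1.15, from 12.5 to 16.5 CPM in the controls to 27.5 to 36.4 CPM (SE 0.12; edgeR, adjusted p = 1.83e-05). Cdkn1c (p57) fell, from 18.3, 19.4, 18.6 and 20.1 CPM to 3.86, 8.55, 7.29 and 5.57 CPM, with a log2 fold change of -1.60 (SE 0.19; edgeR, adjusted p = 5.52e-05). Cdkn1b (p27), at 38.6 to 47.1 and 40.7 to 45.5 CPM, had a log2 fold change of -0.03 (SE 0.07).

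Among factors upstream of both lists (Rb, E2F and DREAM, 18 genes), 4 of 14 tested were higher and 1 lower, against 45.1% of all genes in either direction. The transcription factor E2f3 fell from 113 to 124 CPM in the controls to 53.2 to 71.1 CPM, a log2 fold change of -0.95 (SE 0.08; edgeR, adjusted p = 6.33e-06). Of 33 further mitotic genes tested 11 were higher and 1 lower, and of 24 further replication genes 5 were higher and 1 lower, where 22.4% of all genes were higher and 22.8% lower. Dlgap5, a spindle protein, rose by 1.65 (SE 0.27; edgeR, adjusted p = 0.000492) and was the largest rise of the further mitotic genes. The condensin subunit Ncaph fell from 14.1, 13.2, 11.5 and 14.2 CPM to 1.25, 3.42, 2.49 and 2.69 CPM, with a log2 fold change of -2.42 (SE 0.22; edgeR, adjusted p = 8.35e-06). Its partners Smc2 and Smc4, named after their values were seen, rose by 0.58 (SE 0.12; edgeR, adjusted p = 0.00229) and 0.68 (SE 0.09; edgeR, adjusted p = 0.000133). Slbp, which binds the stem-loop of histone messages, fell by 0.38 on the log2 scale (SE 0.08; edgeR, adjusted p = 0.00213).

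**Figure D5:**
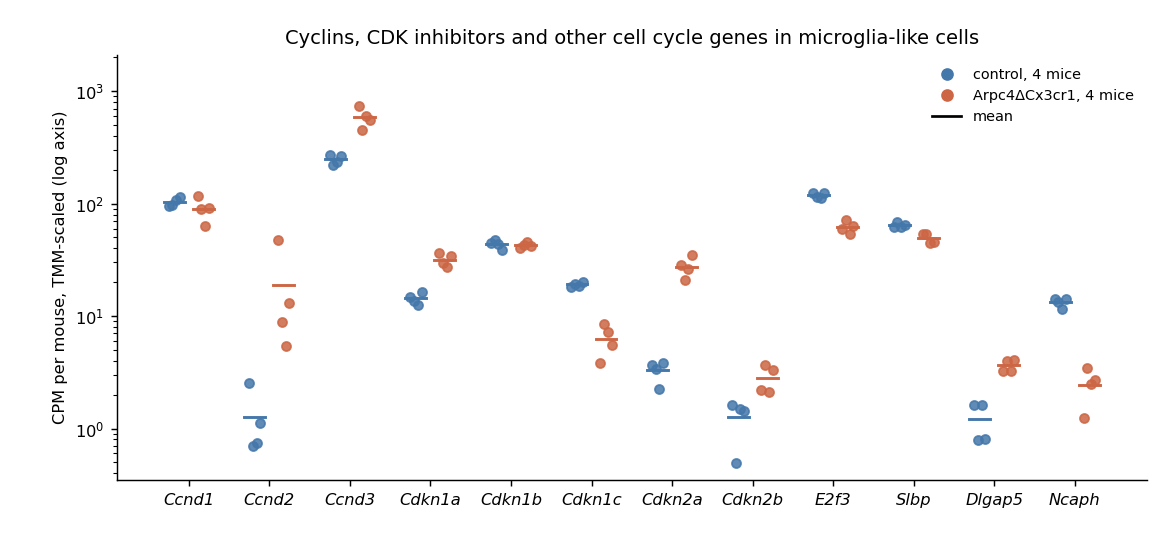
Level of cyclins D, inhibitors of cyclin-dependent kinases and further cell cycle genes in microglia-like cells, in CPM on a log axis, 1 point per mouse, with the group mean as a line. Ccnd2, Ccnd3, Cdkn1a, Cdkn2a, Cdkn2b and Dlgap5 are higher and Cdkn1c, E2f3, Slbp and Ncaph lower in all Arpc4ΔCx3cr1 mice, while Ccnd1 and Cdkn1b overlap.

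In the other immune cells of the sort the cell cycle genes could hardly be tested, since each type had few cells. In T cell-like cells (134 control and 176 Arpc4ΔCx3cr1), where 3.7% of 4190 genes passed the threshold (1.38% higher and 2.32% lower), only Pcna and Stmn1 were tested. Of these 0 passed in edgeR, and 0 had an unadjusted p under 0.05, with log2 fold changes of 0.02 (SE 0.36) and -0.64 (SE 0.63). Stmn1 was at 306 CPM in control mouse 3 against 6.54 to 21.5 CPM in the other controls and 25.1 to 114 CPM in the Arpc4ΔCx3cr1 mice, and without control mouse 3 it passed as higher (2.08; edgeR, adjusted p = 0.039). For both genes the genotype effect was compared directly between microglia-like and T cell-like cells, with differences of 0.14 and 0.07 on the log2 scale (edgeR interaction, adjusted p = 0.95 and 0.979), the second of which includes control mouse 3. In monocyte-like cells (114 and 232) and in CNS-associated macrophage-like cells (284 and 123), in which 8.15% (3.25% higher and 4.9% lower) and 1.01% (0.567% higher and 0.447% lower) of genes passed, no cell cycle gene had enough UMIs to be tested with all mice. With 1 mouse left out Stmn1 could be tested in monocyte-like cells and passed as lower without control mouse 2 (-1.90; edgeR, adjusted p = 0.0215), Arpc4ΔCx3cr1 mouse 2 (-1.48; 0.0299) or Arpc4ΔCx3cr1 mouse 4 (-1.66; 0.0372), while it missed the threshold in the other 4 such fits that tested it. Its levels there were 43.9 to 152 CPM in the controls and 0 to 36.6 CPM in the Arpc4ΔCx3cr1 mice.

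The summed mitotic level in T cell-like cells was 25.6 to 51.7 CPM in 3 control mice and 698 CPM in control mouse 3, and 53.9 to 71.3 CPM in 3 Arpc4ΔCx3cr1 mice and 329 CPM in mouse 2. Few cells lay behind these values, with 2 of 130 thinned T cell-like cells in the controls and 1 of 168 in the Arpc4ΔCx3cr1 mice holding at least 3 mitotic genes. Among monocyte-like cells these were 2 of 113 and 3 of 228, and among CNS-associated macrophage-like cells 1 of 252 and 0 of 99, the latter allowing a share of up to 3.03%. A difference between the genotypes in these shares was not detectable with so few cells.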

How the data were processed

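The study's sorted cells were processed by the authors with Cell Ranger (7.1.0 per the file headers, 6.1.2 per the labels) on mm10, and the raw UMI counts per gene and cell, split by mouse with the sample tags, were analysed as deposited. The authors' removal of free RNA was not applied. The female Arpc4ΔCx3cr1 mouse that the authors left out is not identified in the labels, although only mouse 1 had a high level of Xist. All 8 mice, mouse 1 included, were used. Of 19864 cells 1 had under 200 genes and was removed, and 0 barcodes occurred in more than 1 mouse. Tags remove doublets between mice, and no doublet caller was run, so cells of very high UMIs were left out as an alternative.

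Cells were clustered with Seurat 5.3.0 (Louvain, resolution 0.8) without 173 cell cycle genes, and clusters were named by fixed markers. A cluster in which over 25% of cells held at least 5 mitotic genes was split cell by cell: microglia-like cells needed at least 60 microglia marker UMIs per 10000 and under 30 of each other list. That rule was chosen after seeing the data, with 1 cell near the microglia limit, 5 near the B cell limit and 1 each near the macrophage and monocyte limits. A further 15 cells had enough microglia markers but were kept out by B cell markers. UMIs were summed per mouse and class and tested with edgeR 4.0.16 (filterByExpr, TMM, quasi-likelihood, Benjamini-Hochberg adjusted p under 0.05). In simulated counts for microglia-like cells 98% of 200 genes changed by 2-fold were recovered, with 11 false calls among 12565 genes tested. The changed genes were drawn only from genes with higher counts, and the same spread between mice was set for all genes. The share recovered therefore does not describe genes with few UMIs or a larger spread, such as the rarer mitotic genes. Shares of cells and summed levels are given without a test.

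The members and gene lists were chosen with earlier results of these data known. All 36 members are accounted for. From 105 further genes, the text names up to 5 largest rises and 5 largest falls past the threshold without overlap, and Cdkn1a, Cdkn1b, Cdkn2a, Ccnd1, Ccnd2, Ccnd3, Cdk4 and Cdk6. The planned rule for promoters (Mcm2, Mcm3, Cdk1 and Cenpa) was replaced after the values were seen by the genes with an adjusted p under 0.01, which shows Cenpe in place of Mcm2. Alternatives were DESeq2 1.42.0, other scaling, filters, clusterings and each mouse left out. Other software was R 4.3.3, Python 3.11.15, numpy 2.4.6, pandas 2.3.3 and scipy 1.17.1.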

Additional observations from a re-analysis of the deposited data

Results flagged for a closer look

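In 6 of 122 groups of 4 mice, 1 mouse lay far from the others by Dixon's test, where chance flags about 1 in 20 groups. Aurkb was at 2.57 CPM (scaled by totals) in microglia-like cells of Arpc4ΔCx3cr1 mouse 4 against 0.804 to 1.01 CPM in mice 1 to 3. Arpc4ΔCx3cr1 mouse 4 also had the highest share of thinned microglia-like cells with at least 3 genes of both lists, 0.208% against 0.047 to 0.0531%. In T cell-like cells the summed mitotic genes were at 698 CPM in control mouse 3 against 25.6 to 51.7 CPM in the other controls, and at 329 CPM in Arpc4ΔCx3cr1 mouse 2 against 53.9 to 71.3 CPM. The summed replication genes of control mouse 3 were at 302 CPM there, against 144 to 162 CPM. In monocyte-like cells the summed mitotic genes of Arpc4ΔCx3cr1 mouse 3 were at 799 CPM against 39.4 to 80.4 CPM.

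A further signal came from barcodes that were not given to a mouse. Of 7036 such barcodes with at least 500 UMIs, 88 (1.25%, exact binomial 95% interval 1.00 to 1.54%) held at least 3 mitotic genes, against 119 of 19863 cells given to a mouse (0.599%, 0.497 to 0.716%). A count of 0 would allow up to 0.0426%. The barcodes without a mouse had a median of 6450 UMIs against 3906, and the part of depth and of doublets between mice in the difference was not tested.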

How the results depend on the processing

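Over 44 single genes and 19 alternatives, 749 of 807 values kept their direction and their side of the threshold, 24 passed it newly, 8 no longer passed and 26 turned direction. Of the counts, shares and sums, 136 values held, 21 moved and 5 turned. The median log2 fold change of all genes stayed between -0.01 and 0.02 under every setting. The cause of the changes below was not tested.

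With a fold over 2 also required, 4 members (all higher), 1513 genes and 10 further cell cycle genes passed in microglia-like cells. Without cells of over 3 times the median UMIs 10 of 27 members tested passed, where 45.1% of all genes passed with all cells kept. Without a filter on low counts 274 genes passed in T cell-like and 111 in CNS-associated macrophage-like cells. Of the members, Ube2c then passed in T cell-like cells, at 89.6 CPM in control mouse 3 and 0 in all other mice. In monocyte-like cells Cenpf, Ube2c and Stmn1 passed without the filter. Cenpf and Ube2c were highest there in Arpc4ΔCx3cr1 mouse 3, at 144 and 139 CPM. With the filter 3.7% of all genes passed in T cell-like and 8.15% in monocyte-like cells. Leaving out 1 mouse gave 4 to 9 members in microglia-like cells, where 4975 to 6275 of 12824 to 12918 genes tested passed. It gave 92 to 165, 138 to 272 and 7 to 53 genes in T cell-like, monocyte-like and CNS-associated macrophage-like cells. The groups overlapped in the mitotic share with at least 2 genes and with the hemoglobin-led cluster. The share differed by 0.374 percentage points without thinning, 0.487 at resolution 0.4 and 0.0909 without the split cluster, the last chosen after seeing the data. At resolution 0.4, here and below, the Xist-led cluster of 1725 Arpc4ΔCx3cr1 cells was not counted as microglia-like. The replication share differed by 0.728 without thinning and turned to -0.146 with at least 2 genes, -0.103 at 1000 UMIs and -0.032 without the split cluster, and ranged from -0.0377 to 0.152 with 1 mouse left out. The summed mitotic log2 difference was 1.09 at resolution 0.4, 0.90 without cells of over 3 times the median UMIs and 0.98 without the split cluster, and the summed replication difference turned to 0.016 with TMM-scaled totals.

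Genes near 0 turned direction. Rrm1 was at 0.0010 in DESeq2, 0.026 when clustering used the cell cycle genes, 0.0077 at resolution 0.4 and 0.014 without cells of over 3 times the median UMIs. Kif23 was at 0.108 and 0.378 with the cell cycle genes in the clustering and at resolution 0.4, and Tyms at 0.044 at resolution 0.4. Cenpf was at -0.81 without cells with 3 mitotic genes, -0.0021 with the hemoglobin-led cluster (added after seeing the data) and -0.54 without the split cluster. With 1 mouse left out Rrm1 ranged from -0.0416 to 0.0182, Kif23 from -0.301 to 0.376, Tyms from -0.154 to 0.0448, Cenpf from -0.134 to 0.280, Aurkb from -0.414 to 0.347 and Cdkn1b from -0.0865 to 0.0122.

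The replicate numbers did not pair the mice: deviations of same-numbered mice correlated at -0.07, -0.01, -0.05 and -0.04, and no Arpc4ΔCx3cr1 mouse correlated best with its own number. With the replicate block 6 of 30 members tested and 29 further genes passed in microglia-like cells, where 45.1% of all genes passed without it. In CNS-associated macrophage-like cells 10 genes passed with the block. Few UMIs limit what can be seen for most mitotic genes and for all members outside microglia-like cells.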
